A study of Mus musculus with 9 samples.

Results

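The class III POU genes are a family of 4 transcription factor genes in the mouse, Pou3f1, Pou3f2, Pou3f3 and Pou3f4. Here they are the rows of the deposited table whose RefSeq identifiers map to those symbols: 4 of 23798 genes, each with 1 of the 33299 transcripts listed. Pou3f1 was picked because it differed between TG mice given NM-101 and TG mice given placebo in these same libraries. Its values in that comparison are therefore given as a description with no test. The other 3 genes were picked by family name, with earlier results of these data known, and their own values were tested. The question was whether the difference of Pou3f1 was shared by its paralogs.

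RNA was sequenced from mouse brain samples labelled as oligodendrocytes, the cells that make myelin. There were 3 groups of 3 libraries: genotype WT with placebo, genotype TG with placebo, and genotype TG with NM-101, an agent that the labels give only by this code. Both placebo groups share the placebo, and both TG groups share the genotype. The series title concerns alpha-synuclein from neurons and its effects on oligodendrocytes. The labels do not state what the TG allele carries, nor the strain, age, dose or time of treatment, and nothing says whether libraries came from separate animals. P-values therefore measure the spread between these libraries, which may be technical.

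POU proteins bind DNA through a pair of linked modules, the POU-specific domain and the POU homeodomain, and the classical octamer is one of their target motifs. In the brain, class III members act in neural progenitors and in the specification of neurons. They often bind beside SOX proteins, which carry an HMG box. Pou3f1, also called Oct6, SCIP or Tst-1, is best known for timing myelination in Schwann cells, and it is also made in oligodendrocyte precursors and in cortical neurons. Pou3f2 (Brn2) and Pou3f3 (Brn1) overlap in the production and migration of upper-layer cortical neurons. Pou3f4 (Brn4) acts in the inner ear and in the developing striatum and hypothalamus.

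All 4 genes have 1 exon. In RefSeq on GRCm38.p6, Pou3f1 lies on chromosome 4 from 124657646 to 124660655 and Pou3f2 on chromosome 4 from 22482095 to 22488366. Pou3f3 lies on chromosome 1 from 42695768 to 42700210, and Pou3f4 on chromosome X from 110814379 to 110819108. Pou3f2 is on the minus strand and the others are on the plus strand. The coding part takes up 1347, 1335, 1491 and 1083 bases of Pou3f1 to Pou3f4, not counting the stop codon, and the remainder of each exon is UTR. RefSeq and GENCODE M21 disagree on transcript length, at 3010 and 3849 bases for Pou3f1, 6272 and 5587 for Pou3f2, 4443 and 7409 for Pou3f3, and 4730 and 2928 for Pou3f4. The labels do not state which length the authors divided by.

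The sequence before the annotated start is shown because the family lay higher together under NM-101, as described further on. The promoter table has no entry for Pou3f1. RefSeq promoters of the build GRCm38.p6 were printed for Pou3f2, Pou3f3 and Pou3f4. The 250 bases upstream of each start are chr4:22488367-22488616 on the minus strand for Pou3f2, chr1:42695518-42695767 on the plus strand for Pou3f3, and chrX:110814129-110814378 on the plus strand for Pou3f4. Each is written 5′ to 3′ in the direction of its gene, and capitals mark the CCAAT box on either strand.
Pou3f2: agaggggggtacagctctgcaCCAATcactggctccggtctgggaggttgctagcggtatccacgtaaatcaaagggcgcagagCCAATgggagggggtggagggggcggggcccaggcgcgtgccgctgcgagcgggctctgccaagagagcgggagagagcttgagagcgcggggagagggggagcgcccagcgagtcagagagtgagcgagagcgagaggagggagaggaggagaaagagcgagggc
Pou3f3: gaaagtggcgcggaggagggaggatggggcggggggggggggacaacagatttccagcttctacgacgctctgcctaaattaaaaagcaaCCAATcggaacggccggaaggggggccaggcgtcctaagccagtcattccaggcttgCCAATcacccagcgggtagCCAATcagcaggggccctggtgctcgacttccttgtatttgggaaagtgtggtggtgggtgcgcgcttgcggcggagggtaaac
Pou3f4: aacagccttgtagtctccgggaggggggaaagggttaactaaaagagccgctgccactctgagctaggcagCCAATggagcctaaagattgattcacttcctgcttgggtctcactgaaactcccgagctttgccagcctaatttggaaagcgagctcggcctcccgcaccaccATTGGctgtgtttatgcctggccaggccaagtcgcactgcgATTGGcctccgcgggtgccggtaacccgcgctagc
The CCAAT box was matched 2 times in the Pou3f2 window and 3 times in each of the other windows. GENCODE starts Pou3f4 at 110814280, inside its window, and the matches written ATTGG lie past that start. By GENCODE they are therefore within the transcript and not upstream of it. Among 32851 windows of this length in the table, 33.8% held at least 1 match, 10.1% at least 2 and 2.79% at least 3. The octamer ATGCAAAT and the TATA box TATAAA had 0 matches in these windows, searched on both strands, and 1.6% and 12.4% of all windows held them. The GC box GGGCGG was matched 1 time in Pou3f2 and 1 time in Pou3f3, against 32.7% of all windows with a match, and 0 of the CCAAT matches overlapped any of the other motifs. The windows were rich in G and C, at 66.8%, 60.8% and 58.0%, where the median of all windows was 52.4%. A match describes letters only.

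Counts stand in the WT columns, with library totals from 10612290 to 14041951. Values in the TG columns are on a log2 scale and are read here as log2(FPKM + 1), where FPKM is the read number scaled by transcript length and library depth. Steps between low values placed the TG libraries at 9180000 to 12950000 reads. Although the label is oligodendrocyte, neuronal transcripts were high too. Snap25, a synaptic protein gene, had a mean of 10.06 and Mbp, a myelin protein gene, one of 10.51 on the log2(FPKM + 1) scale under TG placebo. TG placebo replicate 1 stood apart from replicates 2 and 3 in marker genes. Its summed FPKM over 15 myelin and mature oligodendrocyte markers was 5024, against 1683 and 1608, and that over 8 RNAs retained in nuclei was 197.3, against 1139 and 1380. Summed FPKM over 12 ependymal and choroid plexus markers was 4645, against 14.8 and 21.4. The values of the 4 genes and the medians of gene lists are given with and without this library. For other genes the value without it is given where it turned the sign or moved it by over 1.5 times.

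Pou3f1 lay at 4.33, 4.52 and 4.15 in the TG placebo libraries and at 5.33, 5.17 and 5.30 in the TG NM-101 libraries, on the log2(FPKM + 1) scale. All 3 NM-101 libraries were above all 3 placebo libraries, and the lowest of them was 0.65 above the highest placebo library. The group means were 4.33 ± 0.19 and 5.27 ± 0.09 (SD, n = 3). The difference of 0.93 ranked 27th from the top among 12699 genes tested. In FPKM, the mean went from 19.2 ± 2.599 to 37.5 ± 2.31, a ratio of 1.95. Pou3f1 was 1 of 13 genes higher at an adjusted p under 0.05, which is 0.102% of the genes tested. That call was kept in 3 of 12 alternatives. It led to the choice of Pou3f1 and supports nothing further here. Without TG placebo replicate 1 the difference was again 0.93.

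Pou3f2 lay at 1.77, 1.90 and 1.94 under TG placebo and at 2.35, 2.33 and 2.48 under TG NM-101 on the same scale. The groups did not overlap. The difference was 0.52 (SE 0.13, 95% interval 0.21 to 0.82), and it did not pass over all genes (limma, adjusted p = 0.145). In FPKM the means were 2.66 ± 0.23 and 4.23 ± 0.30 (SD, n = 3), a ratio of 1.59.

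Pou3f3 lay at 4.45, 4.49 and 4.63 under TG placebo and at 5.29, 4.77 and 5.01 under TG NM-101. Again the groups did not overlap, but NM-101 replicate 2 was only 0.15 above TG placebo replicate 3. The difference was 0.50 (SE 0.14, 95% interval 0.19 to 0.81) and did not pass (limma, adjusted p = 0.156). NM-101 replicate 1 was the highest library, and without it the difference was 0.37 (limma, adjusted p = 0.284). In FPKM the means were 22.0 ± 1.48 and 31.9 ± 5.93 (SD, n = 3), a ratio of 1.45.

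Pou3f4 was the lowest of the family, at 0.69, 0.74 and 0.79 under TG placebo and 1.32, 1.16 and 1.24 under TG NM-101. The groups did not overlap here either. Its mean over the 6 libraries was 0.989, just under the level of 1 required for testing, so 3 of the 4 members were tested. In the fit with no filter on low values the difference was 0.50 (SE 0.12, 95% interval 0.22 to 0.78) and did not pass (limma, adjusted p = 0.221). In that fit 0 of 18715 genes passed in this direction, which is 0% of them, and 2236 had an unadjusted p under 0.05 in either direction. Adding 1 before the log shrinks the change of so low a gene. In FPKM the means were 0.672 ± 0.056 and 1.36 ± 0.13 (SD, n = 3), a ratio of 2.02. With 0.1 added in place of 1, the difference of Pou3f4 was 0.92, that of Pou3f1 0.97, that of Pou3f2 0.65 and that of Pou3f3 0.52.

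**Figure D1:**
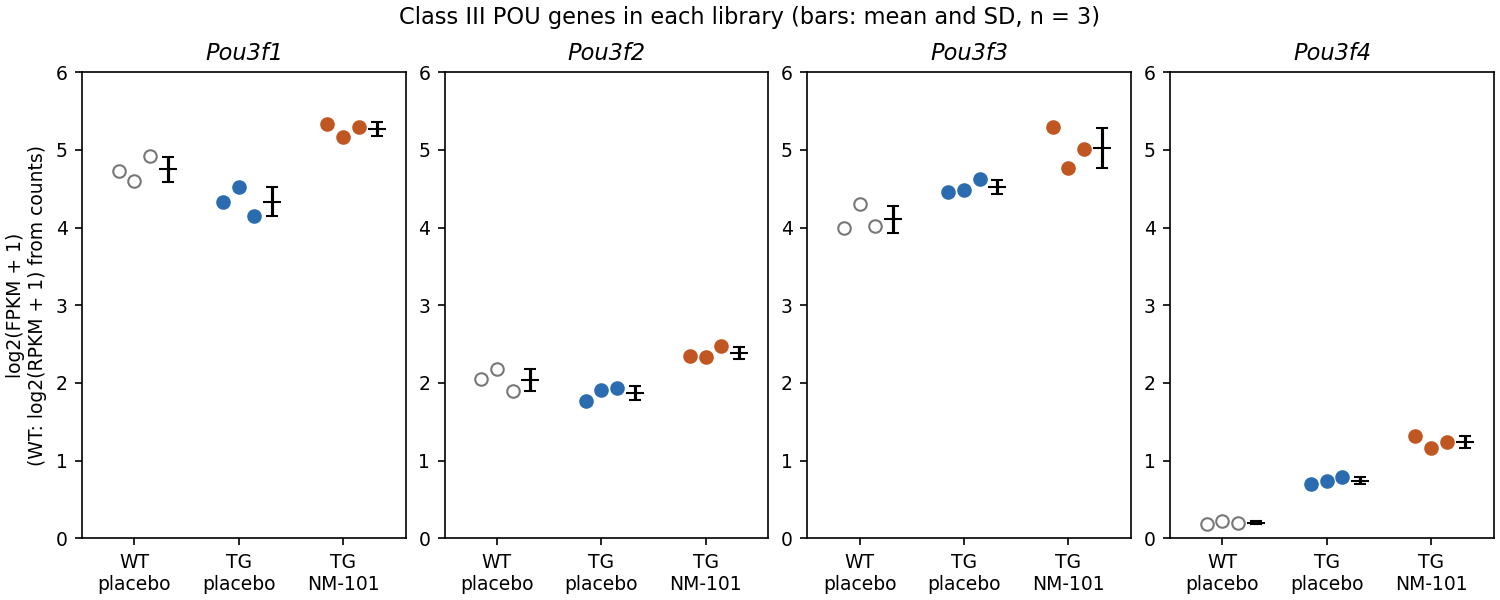
Level of each gene in every library by group, in log2(FPKM + 1) for TG libraries and log2(RPKM + 1) computed from counts for WT libraries (open points), with the mean and SD of 3 libraries beside the points. In each of the 4 panels the NM-101 points lie above all TG placebo points, while WT points were scaled separately and are shown for description.

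All 3 paralogs thus lay higher under NM-101 with no overlap, as Pou3f1 did, and their differences on the log2(FPKM + 1) scale were smaller. They were 0.52, 0.50 and 0.50, and 0 of the 2 tested paralogs passed over all genes. Unadjusted p-values from the same limma fit were 0.0040 for Pou3f2 and 0.0051 for Pou3f3. Of all genes tested, 10.7% were higher at an unadjusted p under 0.05, and 13.6% had every NM-101 library above every placebo library. For genes with a mean from 0.5 to 1, the range of Pou3f4, the latter share was 6.34%. The change of Pou3f1 exceeded those of the paralogs by 0.42, 0.43 and 0.44. These gaps were not tested, because Pou3f1 was chosen for the size of its change. As ratios of mean FPKM, Pou3f4 (2.02) was next to Pou3f1 (1.95), with Pou3f2 (1.59) and Pou3f3 (1.45) below them.

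**Figure D2:**
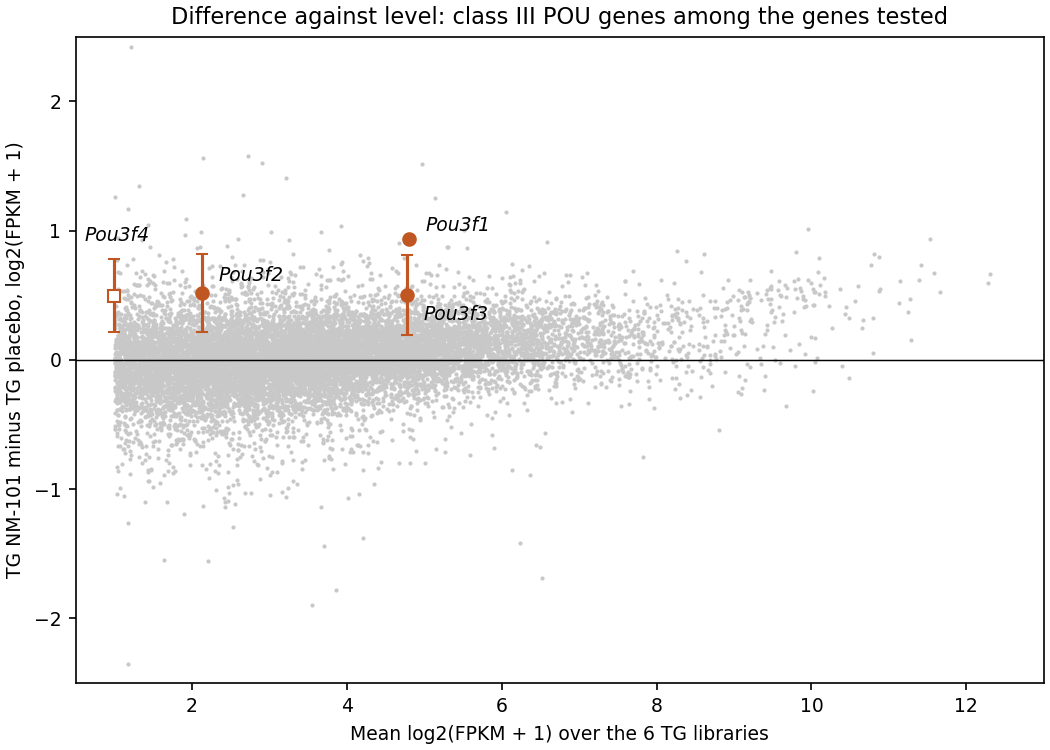
TG NM-101 minus TG placebo against the mean level over the 6 TG libraries, both in log2(FPKM + 1), for the genes tested (grey; 11 genes beyond the vertical axis are not drawn). Orange points are the class III POU genes, with 95% intervals for the paralogs, and the open square is Pou3f4, which fell under the level tested and is drawn from the fit with no filter. The paralogs lie at 0.52, 0.50 and 0.50, with grey points on either side of them.

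Whether the paralogs passed depended on 1 placebo library. Without TG placebo replicate 1, the differences were 0.46 for Pou3f2, 0.47 for Pou3f3 and 0.47 for Pou3f4, and the first pair passed (limma, adjusted p = 0.0363 and 0.0469). In that fit 9.69% of all genes passed in this direction, and it compares NM-101 with the placebo libraries that were high in nuclear RNA. Without any other library the adjusted p of Pou3f2 and Pou3f3 lay above 0.2. Leaving out a library cannot turn the sign where groups do not overlap, and 4 further alternatives change the test and not the difference. Over 12 alternatives the difference ranged from 0.84 to 1.03 for Pou3f1, 0.46 to 0.65 for Pou3f2, 0.37 to 0.63 for Pou3f3 and 0.46 to 0.92 for Pou3f4.

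**Figure D3:**
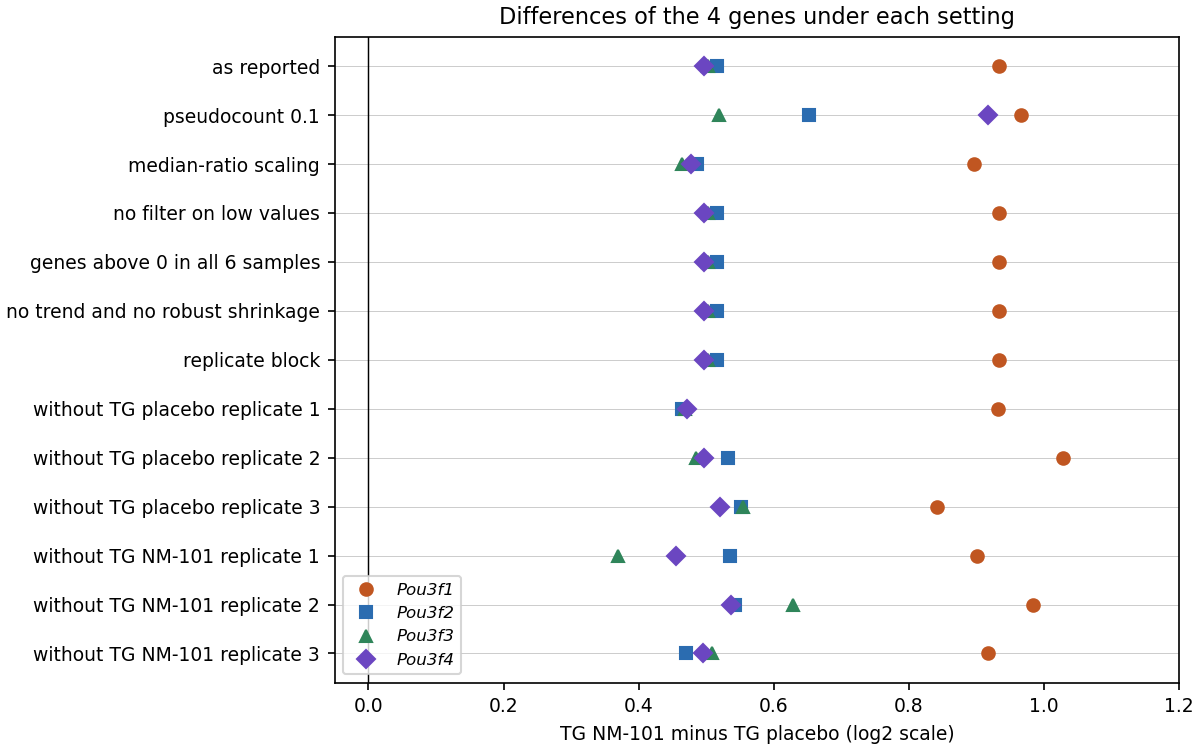
TG NM-101 minus TG placebo on the log2 scale (horizontal) for each gene under the reported setting and each of 12 alternatives (vertical); the points are the fitted differences. All points lie above 0, with Pou3f1 at 0.84 to 1.03 and the paralogs below it in each setting; Pou3f4 comes nearest, at 0.92 with a pseudocount of 0.1.

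Few reads stood behind Pou3f4, and many behind the other members. In the WT libraries, Pou3f1 had 811, 985 and 1042 counts and Pou3f3 had 702, 1169 and 799. Pou3f2 had 209, 309 and 201. Pou3f4 had 7, 11 and 8 counts, with exact 95% Poisson intervals of 2.81 to 14.4, 5.49 to 19.7 and 3.45 to 15.8 that cover counting error only. As CPM, counts scaled to equal library totals, these were 78.4 ± 9.33 for Pou3f1, 72.4 ± 9.42 for Pou3f3, 19.6 ± 2.47 for Pou3f2 and 0.708 ± 0.067 for Pou3f4 (SD, n = 3). For the TG libraries the reads behind a value depend on the length assumed. Pou3f4 would rest on 29.8 to 41.2 reads under TG placebo and 59.0 to 89.5 under NM-101 with the RefSeq length, or 18.4 to 25.5 and 36.5 to 55.4 with the GENCODE length.

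The order of levels per length was the same in both TG groups except at the top. Under TG placebo Pou3f3 (4.52 ± 0.09) and Pou3f1 (4.33 ± 0.19) overlapped, Pou3f2 followed at 1.87 ± 0.09 and Pou3f4 at 0.74 ± 0.05 (SD, n = 3; log2(FPKM + 1) scale). Under NM-101 Pou3f1 (5.27 ± 0.09) and Pou3f3 (5.02 ± 0.26) overlapped, with Pou3f2 at 2.38 ± 0.08 and Pou3f4 at 1.24 ± 0.08. In the WT libraries, with RefSeq lengths, Pou3f1 stood at 4.75 ± 0.16, above Pou3f3 at 4.11 ± 0.17 with no overlap, then Pou3f2 at 2.04 ± 0.14 and Pou3f4 at 0.20 ± 0.02 (log2(RPKM + 1) scale). The kit reads transcripts from the 3′ end, so dividing by length lowers long transcripts such as Pou3f2.

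The comparison of TG with WT placebo asks what the genotype changed. The columns were normalized separately, so nothing was tested between them, and both TG groups are set against the same WT libraries. With RefSeq lengths, Pou3f1 differed by -0.42 between TG placebo and WT (4.15 to 4.52 against WT values of 4.603 to 4.93, no overlap). It was 0.51 higher in TG NM-101 than in WT, also with no overlap. Pou3f2 showed the same order, at -0.17 and 0.35, and its TG placebo and WT ranges overlapped. Pou3f3 was higher than WT in both TG groups, by 0.42 and 0.92, and so was Pou3f4, by 0.54 and 1.04. The TG placebo differences were -0.42, -0.12, 0.45 and 0.56 for Pou3f1 to Pou3f4 without TG placebo replicate 1. All these values move with the length assumed: with GENCODE lengths the TG placebo differences were -0.080 for Pou3f1, -0.30 for Pou3f2, 1.10 for Pou3f3 and 0.43 for Pou3f4. Where TG placebo lay relative to WT therefore cannot be told apart from the length used for each gene.

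Non-coding RNA genes around Pou3f3 lay on both sides, and the 2 nearest with values here had no overlap between groups. Every NM-101 library was above every placebo library in 13.6% of all genes tested. Pantr1, a long non-coding RNA gene that ends 943 bases before Pou3f3, lay at 5.72, 6.36 and 6.39 under TG placebo and at 6.91, 6.64 and 6.87 under NM-101, with no overlap. Its difference of 0.65 did not pass (limma, adjusted p = 0.180). The gene 2900092D14Rik starts 126 bases after the RefSeq end of Pou3f3 and ends at 42703176, the same base where GENCODE ends the Pou3f3 exon. Its values were 2.20, 2.87 and 2.82 against 3.41, 3.22 and 3.37, a difference of 0.70 with no overlap (limma, adjusted p = 0.149). Whether reads assigned to it come from a longer Pou3f3 transcript was not tested. Pantr2, named here outside the rule for neighbours, was at 0.74, 1.78 and 2.11 against 1.04, 1.31 and 1.03, and the groups overlapped. TG placebo replicate 1 was the lowest placebo library for all 3 of these RNAs. Without it the difference was 0.43 for Pantr1, 0.49 for 2900092D14Rik and -0.82 for Pantr2, whose NM-101 libraries then all lay below the placebo libraries. In that setting 2929 of the 12699 genes tested lay that way. The groups overlapped for the tabled neighbours of the other members. Utp11, after Pou3f1, differed by -0.07 and Fbxl4, before Pou3f2, by 0.08, each with overlapping groups (-0.04 and 0.12 without that library), and Cylc1, after Pou3f4, was listed at 0 in all 6 TG libraries. Gm2164 and Gm38545 beside Pou3f1 and Gm46091, which overlaps Pou3f3, were not analysed here, and the labels do not state whether the counting used strand.

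**Figure D4:**
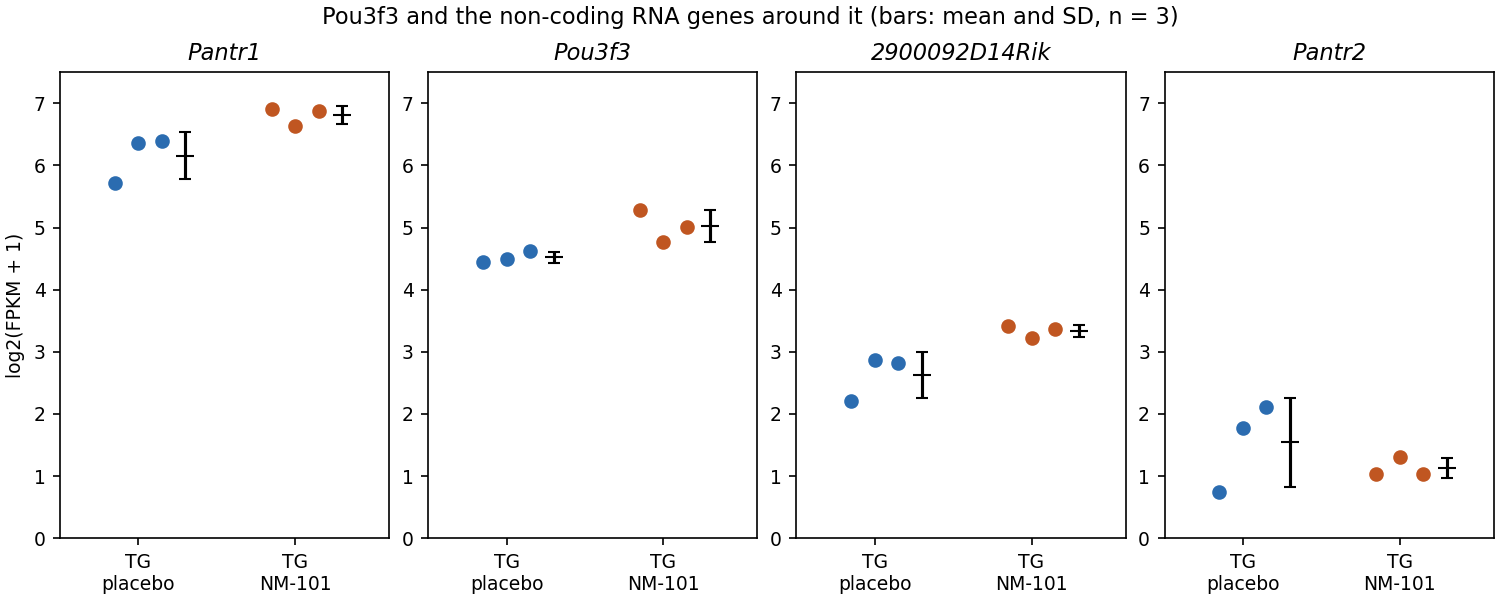
Level in log2(FPKM + 1) of Pou3f3 and 3 non-coding RNA genes near it in each TG library, with the mean and SD of 3 libraries beside the points. NM-101 points lie above all placebo points for Pantr1, Pou3f3 and 2900092D14Rik, and not for Pantr2.

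Most other POU genes lay below the level tested. Of 11 outside class III, 3 were tested and 0 passed in limma, against 0.134% of all genes tested. The unadjusted p was under 0.05 for 1, against 14.8% of all genes tested. That was Pou6f1, a class VI POU gene expressed in brain, which lay at 4.14, 4.08 and 3.72 under TG placebo and 4.58, 4.52 and 4.84 under NM-101. Its difference of 0.67 came with no overlap of groups (limma, adjusted p = 0.102). Pou2f1, the widely expressed Oct1, differed by 0.06, and Pou2f2, the lymphoid Oct2, by -0.28, each with overlapping groups. These became -0.07 and -0.43 without TG placebo replicate 1, and the median of the 3 went from 0.06 to -0.07. Pou4f3 and Pou5f1, genes of sensory cells and of pluripotent cells, were listed at 0 in all 6 TG libraries.

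Of 15 SOX genes, 13 were tested, 9 were higher and 4 lower, and 1 passed, which was Sox9. The median difference was 0.19, against 0.03 over all genes tested, and it was 0.14 without TG placebo replicate 1. Of the 13, 5 had no overlap in the upward direction. The shares over all genes tested were 13.6% for no overlap in that direction and 0.134% for passing in either direction. Of those 12699 genes, 7044 were higher and 5651 lower. Sox9, a factor of astrocytes and glial progenitors, rose from 3.82 ± 0.10 to 4.59 ± 0.04 (SD, n = 3; limma, adjusted p = 0.0425). That call of Sox9 was kept in 2 of 12 alternatives, with adjusted p-values up to 0.351. Sox2, a factor of neural stem cells and glia and a classical POU partner, lay at 4.49, 4.59 and 4.58 against 5.28, 4.92 and 5.18, a difference of 0.57 that did not pass (limma, adjusted p = 0.0882). Sox1, also of neural progenitors, differed by 0.36 with no overlap. Sox10, of the oligodendrocyte lineage, differed by 0.09 and Sox11, of young neurons, by 0.07, each with overlapping groups. They differed by 0.16 and -0.03 without TG placebo replicate 1.

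Genes with textbook links to class III POU factors lay on both sides. Of 11 such genes, 7 were tested, 5 were higher and 2 lower, where 7044 of the 12699 genes tested were higher. In limma 0 passed, against 0.134% of all genes tested, and the unadjusted p was under 0.05 for 1, against 14.8%. The median difference was 0.12, and 0.10 without TG placebo replicate 1. Crh, the corticotropin-releasing hormone gene, was that gene, at 1.25, 1.13 and 1.10 against 1.58, 1.78 and 1.54 (difference 0.47; limma, adjusted p = 0.211). Egr2, which Pou3f1 helps to induce in Schwann cells, lay at 0.38, 1.05 and 1.33 against 1.5, 0.93 and 1.85, with overlap. Pmp22, a myelin gene of peripheral nerve, differed by 0.26, also with overlap. Egr2 differed by 0.50, and by 0.23 without TG placebo replicate 1, which moved Pmp22 to 0.39. Nes (0.12), Fabp7 (-0.09) and Dll1 (-0.09), genes of neural progenitors, overlapped between groups. Without that library Fabp7 differed by -0.26 and Dll1 by -0.35.

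The members share the lack of introns. Among 22 transcription factor genes listed as intronless, 21 have a single exon in GENCODE. Of these 22, 17 were tested, 13 were higher and 4 lower, 0 passed in limma and 6 had an unadjusted p under 0.05. The shares over all genes were 14.8% for such a p and 13.6% for no overlap in the upward direction, which 6 of 17 showed. Over all genes tested, 7044 of 12699 were higher and 0.134% passed. The median difference was 0.20, and 0.18 without TG placebo replicate 1. The smallest p-values were those of Sox2, Sox1 and Sox4, which are also in the SOX list. Sox4 differed by 0.37.

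Marker genes of brain cell types moved unequally. Of 15 astrocyte markers all were tested and 15 were higher, where 7044 of the 12699 genes tested were higher. Their median was 0.39. No overlap was seen for 8, against 13.6% of all genes in the upward direction. The median was 0.40 without TG placebo replicate 1. Of these markers, 0 passed in limma and 11 had an unadjusted p under 0.05, against 0.134% and 14.8% of all genes tested. Their summed FPKM ran from 2323 to 2810 under TG placebo and from 3276 to 3689 under NM-101, and no marker was at 0. The glutamate transporter Slc1a2 differed by 0.68 and the glycolytic enzyme Aldoc by 0.38. Of 12 microglia markers 10 were higher and 2 lower, with a median of 0.32 and no overlap upward for 5. Of 12 endothelial and mural markers 1 was higher and 11 lower, with a median of -0.27. These 2 medians were 0.25 and -0.41 without TG placebo replicate 1. Of 15 neuron markers 9 were higher and 6 lower, with a median of 0.02 and summed FPKM of 4765 to 5143 against 4889 to 5367. Camk2a, a kinase of excitatory neurons, differed by 0.43 and Thy1, a neuronal surface protein, by -0.29. The neuron median was -0.06 without TG placebo replicate 1. Markers listed for upper-layer cortical neurons had a median of 0.08, 12 of 14 being higher, and their direction rested on TG placebo replicate 1. Its summed FPKM over this list was 211.9, against 284.8 and 305.6 in the other placebo libraries and 268.4 to 286.5 under NM-101. Without it the median was -0.05, with 8 lower. Rorb, a layer 4 factor, differed by 0.34 and Rasgrf2, a signalling gene of upper-layer neurons, by -0.24, each with no overlap. Oligodendrocyte precursor markers had a median of 0.03, with 7 higher and 5 lower, and 2 of the 12 had every NM-101 library below every placebo library, against 5.98% of all genes. One of them was Vcan, a matrix proteoglycan gene (-0.35). The precursor median was 0.10 without TG placebo replicate 1. Myelin markers had a median of 0.10, with 13 of 15 higher and 0 free of overlap. Without TG placebo replicate 1 their median was 0.56, and Mbp went from a difference of 0.31 to 0.87. In that setting 12 of the 15 were free of overlap upward, against 3573 of the 12699 genes tested. The part of these shifts in the values of the POU genes was not tested, and in bulk RNA fewer cells of a type cannot be told apart from less RNA per cell.

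**Figure D5:**
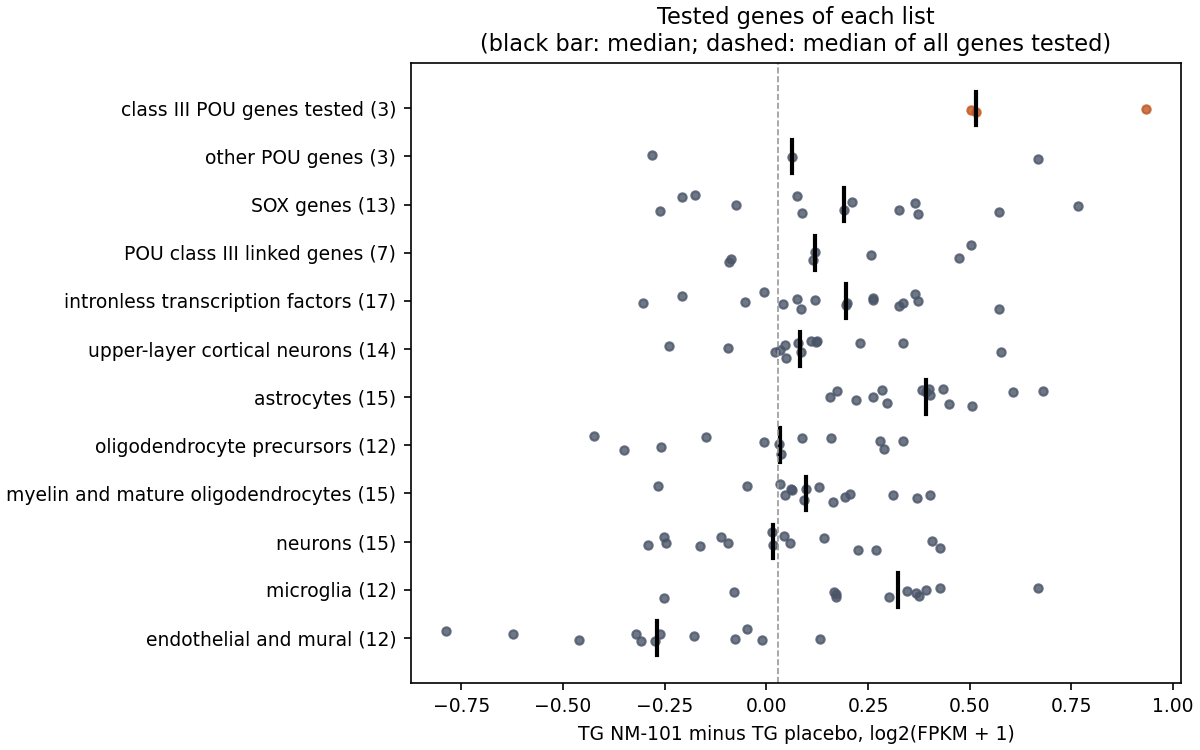
TG NM-101 minus TG placebo in log2(FPKM + 1) for the tested genes of each list (points; number tested in parentheses), with the median of the list as a black bar and the median of all genes tested, 0.03, as a dashed line. The 3 tested class III genes lie at 0.50 to 0.93, and single genes of other lists lie within that range, such as Sox9 (0.77) and Slc1a2 (0.68).

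Ranked without predicted loci and unnamed identifiers, the genes closest to each member over the 6 TG libraries all lay higher under NM-101. The rule asked for members with a mean of at least 1, and Pou3f4, at 0.989, was included all the same. The measure was Pearson's r on the log2(FPKM + 1) scale, a description over 6 libraries that include the group difference. For Pou3f1 they were Cldn34c1, a claudin-family gene (0.996), Mmd2 (0.996), and Zbtb38, which binds methylated DNA (0.995). For Pou3f2 they were Tmcc2 (0.995), the potassium channel Kcnk2 (0.992) and Ppil6 (0.990), and for Pou3f3 Nol8 (0.987), Rorb (0.986) and Epop (0.985). For Pou3f4 they were the RNA-binding protein gene Zfp36l2 (0.995), Klhl34 (0.991) and the Wnt receptor Fzd3 (0.989). These 12 genes differed by 0.18 (Nol8) to 0.69 (Cldn34c1), and in each of them every NM-101 library was above every placebo library. Of all genes tested, 13.6% lay so. The 12 were picked for following members whose groups did not overlap, so this was nearly fixed by the choice and supports nothing further.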

How the data were processed

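The authors deposited 1 table for 9 brain libraries, aligned with Bowtie2 to mm10 per the submitters' processing notes; per the labels' protocols, RNA came from a kit for fixed tissue and libraries from a QuantSeq kit. For the counting program, normalization and annotation, the sources used here name none. In the table, the 3 WT columns hold deposited counts per RefSeq transcript. The 6 TG columns hold deposited log2 values, read as log2(FPKM + 1) because they rose with the WT counts scaled by total (slope 0.947) and fell with length (slope -0.843) over 17132 transcripts. In transcripts of 2500 to 6000 bases, 85.1% to 91.2% of low values lay within 0.2 of a whole read, which gave the TG depths.

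Symbols came from a RefSeq table of GRCm38.p6, which named 32394 transcripts. TG values were unlogged, added up by gene and logged again with a pseudocount of 1. Genes with a mean of at least 1 over the 6 TG libraries, 12699 in all, entered a limma fit (version 3.58.1, R 4.3.3) that used a trended prior variance with robust shrinkage. Adjustment was by Benjamini-Hochberg over all of them, at a threshold of 0.05. The script was tested on simulated data. WT counts were scaled by library total and RefSeq length. Same-numbered replicates did not deviate together (r of 0.045, -0.027 and -0.018), so no block was used.

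The members and the 13 gene lists were chosen with earlier results of these data known. Named genes are the 4 members, up to 3 genes per list with the smallest p, neighbours, the 3 most alike genes per member, and reference genes. Not every gene the rule names is printed, and some are not reported here. Pou4f3, Pou5f1, Sox11, Aldoc, Pantr2 and other list members without small p-values were named with their values already seen. The lists of microglia, endothelial and mural, ependymal and choroid plexus genes and nuclear-retained RNAs had median differences of 0.32, -0.27, 0.09 and -1.02, or 0.25, -0.41, 1.30 and -1.68 without TG placebo replicate 1, a check added after seeing the data.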

Additional observations from a re-analysis of the deposited data

How the results depend on the processing

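The number of genes called, 17 as reported, was 4 with median-ratio scaling, 4 with no filter on low values, 4 with no trend or robust shrinkage, and 3 with a replicate block. It was 0 with genes above 0 in all 6 samples, where 1894 had an unadjusted p under 0.05 in limma. Leaving out 1 library gave from 2 to 2269 calls. The highest was without TG placebo replicate 1, and the others were 5 without replicate 2, 5 without replicate 3, and 2, 2 and 3 without NM-101 replicates 1, 2 and 3. The cause was not tested. Leaving out 1 library moved Pou3f2 between 0.46 and 0.55 and Pou3f3 between 0.37 and 0.63, and both passed only without TG placebo replicate 1. With the replicate block the adjusted p from limma was 0.218 for Pou3f2 and 0.186 for Pou3f3, and 1 of 3 placebo libraries correlated best with its own number. Pou3f4 differed by 0.92 with a pseudocount of 0.1, since it lies near 1 FPKM. For TG minus WT, GENCODE lengths, an alternative chosen after seeing the data, gave -0.080, -0.30, 1.10 and 0.43 for Pou3f1 to Pou3f4 under placebo and 0.85, 0.22, 1.601 and 0.93 under NM-101. No other alternative moved those differences by more than the spread between replicates. Depth limits Pou3f4 most, at 7 to 11 counts in WT.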
